A study of Sus scrofa with 4 samples.

Results

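The genes described here are the WNT ligands WNT2, WNT5A, WNT5B, WNT10B and WNT11 and the secreted WNT antagonists SFRP1, SFRP2, SFRP4, DKK2 and DKK3. They were chosen by name, with earlier results of these data known. All 10 were found among the 16192 protein-coding genes (mRNAs) of the 31567 features listed for differentiating pig preadipocytes. WNT ligands are lipid-modified glycoproteins that bind Frizzled receptors, either together with LRP5 or LRP6, which stabilises β-catenin, or with co-receptors such as ROR2, which acts without β-catenin. Secreted frizzled-related proteins (SFRPs) resemble the WNT-binding domain of Frizzled and bind ligands outside the cell, while Dickkopf proteins (DKKs) mostly act on the LRP co-receptors. WNT/β-catenin signalling is known to hold preadipocytes in the undifferentiated state, and WNT10B is the ligand best known for this.

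Primary subcutaneous preadipocytes of male Chinese Erhualian piglets, aged 5 days, were grown in culture and differentiated. D0 cells were confluent and had received no hormones. D2 cells had been treated for 2 days with dexamethasone (1 μmol/L), 3-isobutyl-1-methylxanthine (IBMX, 0.5 mmol/L) and insulin (5 μg/mL), and D4 cells had then been kept for 2 more days with insulin (5 μg/mL). D8 cells had stayed in growth medium without these agents from D4 on. RNA of 3 piglets was mixed in equal parts into 1 library per stage, and the stages have no replicates. A difference between stages and one between libraries cannot be told apart, no test was run between stages, and every interval below covers counting error only.

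Counted fragments came to 75387428 for D0, 54987801 for D2, 74358922 for D4 and 54128151 for D8. All 6 adipocyte markers, ADIPOQ, FABP4, PLIN1, LPL, PPARG and CEBPA, were at least 2-fold higher at D2, D4 and D8 than at D0, and their summed FPKM (fragments scaled by transcript length and library size) was 121, 483, 1710 and 2011 in the order of the stages. From D4 to D8 only FABP4 rose, from FPKM 853 to 1557. The others were lower at D8 than at D4, PLIN1 at 90.3 after 215, LPL at 142 after 250 and ADIPOQ at 158 after 179. PPARG was at 25.8 after 51.9 and CEBPA at 37.1 after 162. All 6 fibroblast and preadipocyte markers were also reliably expressed, with summed FPKM between 1117 and 3005. Of the markers measured for other cell types, 4 of 5 endothelial, 3 of 5 leukocyte, 2 of 2 skeletal muscle and 3 of 4 epithelial ones were under FPKM 1 in every library, with summed FPKM of 1.16 to 2.65, 3.54 to 8.03, 0.104 to 0.478 and 5.19 to 26.3. The exceptions were PECAM1, the leukocyte genes CD14 and AIF1, the latter at FPKM 1.05 in the D8 library alone, and the keratin KRT8. Markers of mural and smooth muscle cells, described below after DKK2, were not low, with summed FPKM of 506 to 5769. In these bulk libraries, fewer cells of a type and less RNA per cell cannot be told apart.

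The antagonists were more abundant than the ligands as a sum, though at D4 WNT5B, at FPKM 1.78, exceeded DKK2 (1.16) and SFRP4 (1.03). All 5 antagonists were reliably expressed, that is at FPKM 1 or more in at least 3 of the 4 libraries, against 1 of the 5 ligands, WNT5B. Of all 16192 mRNAs, 9191 (56.8%) met this rule. WNT5B and DKK2 met it in 3 libraries, being below FPKM 1 at D2, and SFRP1, SFRP2, SFRP4 and DKK3 met it in all 4. WNT5A, WNT2, WNT10B and WNT11 stayed below FPKM 1 in all 4 libraries. Outside the set, 1 of 7 other secreted antagonists and 1 of 9 other ligands measured were reliably expressed. The contrast within the set thus depends on which genes it holds.

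**Figure D1:**
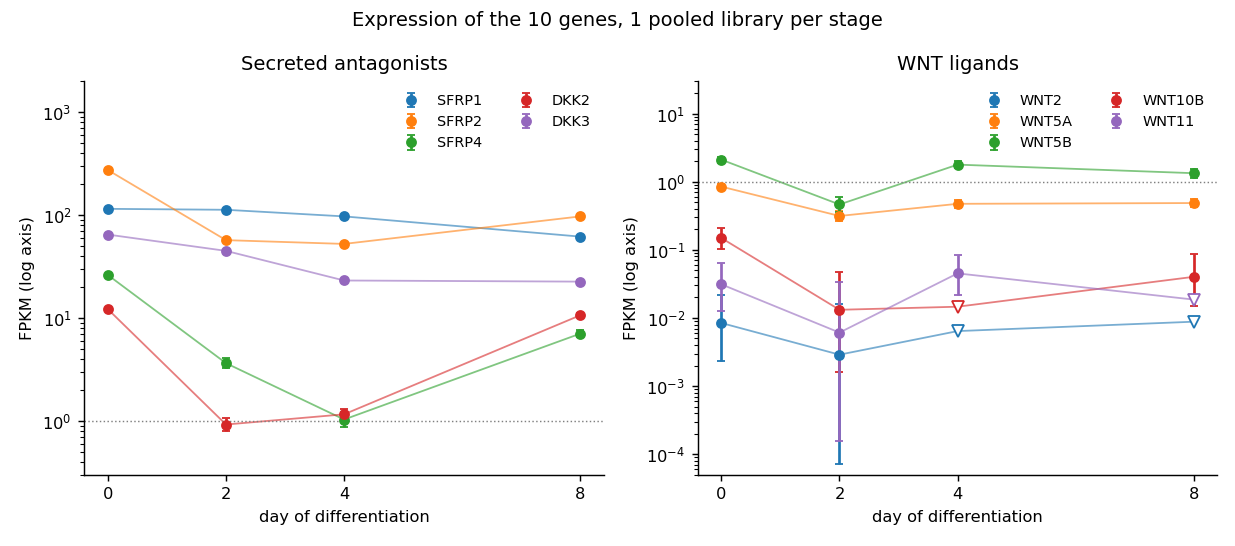
FPKM (log axis) of the antagonists (left) and the ligands (right) in the D0, D2, D4 and D8 libraries. Bars are 95% Poisson counting intervals, open triangles stand at the floor of 3 reads for libraries with 0 reads, and the dotted line marks FPKM 1. SFRP2, SFRP4 and DKK2 dip at D2 and D4, while SFRP1 stays near FPKM 100 until D4.

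WNT5B, a ligand that mainly signals without β-catenin, was the most abundant of the 5 ligands in every library. Its FPKM was 2.10, 0.463, 1.78 and 1.33 at the successive stages, from 374, 60, 312 and 170 reads. Only the D2 library was low. The D2 level was 4.55-fold below D0 (log2 ratio −2.16, 95% counting interval −2.60 to −1.79) and the D4 level 3.85-fold above D2 (1.92, 1.54 to 2.37). From D4 to D8 the log2 ratio was −0.42 (−0.70 to −0.14), short of the 2-fold limit. The gene spans chr5:68627158-68731938 (plus strand, Sscrofa11.1), and FBXL14, an F-box protein gene, lies within this span on the other strand, at FPKM 2.79, 2.47, 2.15 and 1.75. The strand setting of the read counting is not given in the sources used here, so reads shared by these genes cannot be told apart.

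WNT5A (chr13:37344684-37367215, minus strand), the close relative of WNT5B that signals through ROR2, had FPKM 0.846, 0.314, 0.474 and 0.486, from 473, 128, 261 and 195 reads. It was highest at D0, and the D4 and D8 values lay within counting error of each other (log2 ratio 0.04, −0.24 to 0.31). At D2 it was 2.70-fold lower than at D0 (−1.40, −1.72 to −1.15). Unlike WNT5B, which was at 84.6% of its D0 level at D4, WNT5A was at 55.9%. The log2 ratios of D4 to D0 were −0.24 (−0.46 to −0.02) for WNT5B and −0.82 (−1.06 to −0.62) for WNT5A, and these intervals do not overlap.

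The remaining ligands were near the limit of detection. WNT10B (chr5:14997377-15013928, minus strand) had 31, 2, 0 and 6 reads, which is FPKM 0.149, 0.0132, 0 and 0.0402. The D0 library held most of its reads, and the counting intervals of D0 and each later library did not overlap in FPKM. The D2 level was 11.3-fold below D0, with a wide interval (log2 ratio −2.78, −6.61 to −1.52), the D4 level was at least 10.2-fold lower when 0 is set to the floor of 3 reads, and the D8 level was 3.71-fold lower (−1.66, −3.44 to −0.61). WNT11 (chr9:10413182-10435158, minus strand), a ligand of the β-catenin-independent branch, had 7, 1, 10 and 0 reads. WNT2 (chr18:28945825-28993969, plus strand), usually placed in the β-catenin branch, had 4, 1, 0 and 0 reads. For WNT11 the difference between D2 and D0 was not detectable at this depth (log2 ratio −1.35, −7.85 to 0.61), nor was it for WNT2 (−0.52, −7.17 to 1.79). For these ligands the log2 ratios include the 0.01 added to each FPKM, which makes them smaller than the folds. The folds and intervals come without this addition. Reads of such low genes may be a whole fraction of the true number, because they were computed from the FPKM values.

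SFRP2 was the most abundant of the 10 genes at D0 and at D8. It encodes a secreted WNT-binding protein made by stromal cells and lies at chr8:75337311-75345926 (plus strand). Its FPKM went from 273 at D0 to 57.0, 52.4 and 97.0, with 41232, 6272, 7794 and 10501 reads. Among the 16192 mRNAs its FPKM held rank 224 in the D0 library and ranks 921, 1025 and 561 in those that followed. D2 was 4.80-fold below D0 (log2 ratio −2.26, −2.30 to −2.22). D4 was close to D2 (−0.12, −0.17 to −0.07), and D8 was 1.85-fold above D4 (0.89, 0.85 to 0.93), so that D8 remained 2.82-fold below D0 (−1.50, −1.53 to −1.46).

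SFRP4 (chr9:108404314-108414335, minus strand), another WNT-binding SFRP, covered the widest range of the reliably expressed genes in the set. Its FPKM was 26.1, 3.64, 1.03 and 7.05, from 3387, 344, 132 and 656 reads. It was lower at each stage up to D4, 7.18-fold from D0 to D2 (log2 ratio −2.84, −3.01 to −2.68) and 3.52-fold from D2 to D4 (−1.81, −2.12 to −1.52). At D4 it stood 25.3-fold below D0 (−4.65, −4.92 to −4.41). The D8 library was 6.83-fold above D4 (2.76, 2.50 to 3.05), which was still 3.71-fold below D0 (−1.89, −2.01 to −1.77).

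SFRP1 (chr17:10436414-10489773, minus strand), which shares with SFRP2 the role of an extracellular WNT-binding protein, kept its level longest. Its FPKM was 114.8, 112.4, 96.9 and 61.7 from first to last stage, based on 36788, 26274, 30649 and 14194 reads. The D2 library was close to D0 (log2 ratio −0.03, −0.05 to −0.01), and the lowest value was that of D8, 1.86-fold below D0 (−0.90, −0.92 to −0.87). SFRP1 did not reach the 2-fold limit in any of the 5 comparisons. It exceeded SFRP2 at D2 and D4, and SFRP2 exceeded it at D0 and D8.

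DKK2 (chr8:114862056-114974327, plus strand), which binds LRP5 and LRP6, was high at D0 and D8 and low in between. Its FPKM was 12.2, 0.923, 1.16 and 10.6, counted from 3362, 186, 316 and 2109 reads. The D2 level was 13.2-fold below D0 (log2 ratio −3.71, −3.94 to −3.51), and the D8 level was 9.17-fold above D4 (3.19, 3.03 to 3.37). At D8 it was at 87.4% of D0 (−0.19, −0.27 to −0.12), the highest share among the 6 reliably expressed genes.

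Of 5 listed markers of mural and smooth muscle cells, the 3 reliably expressed ones were, like DKK2, higher at D0 and D8 than at D2 and D4. The actin ACTA2 had FPKM 2907, 324, 225 and 2762, and the actin-binding TAGLN had 2767, 297, 277 and 1987. CNN1, which encodes calponin, had 94.3, 4.22, 2.39 and 24.2. All 3 were at least 2-fold lower at D2 and D4 than at D0 and at least 2-fold higher at D8 than at D4, and CNN1 was still 3.89-fold below D0 at D8. The other 2 markers stayed below FPKM 1 and had other patterns, MYH11 with FPKM 0.63, 0.35, 0.34 and 0.29 and RGS5, highest at D4, with 0.16, 0.14, 0.74 and 0.35, while the summed FPKM of all 5 was 5769, 626, 506 and 4775. The part of cells with high contractile gene expression in the values of DKK2, SFRP2 and SFRP4 was not tested.

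DKK3 (chr2:47385244-47444664, plus strand), a divergent Dickkopf family member whose action on WNT signalling is less clear, was lower at each stage up to D4 and level afterwards. Its FPKM was 64.6, 44.8, 23.1 and 22.5, from 13300, 6739, 4698 and 3335 reads. The log2 ratio was −0.53 (−0.57 to −0.48) from D0 to D2 and −0.96 (−1.01 to −0.90) from D2 to D4, so each step missed the 2-fold limit while D4 was 2.79-fold below D0 (−1.48, −1.53 to −1.43). D8 lay within counting error of D4 (−0.04, −0.10 to 0.03).

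**Figure D2:**
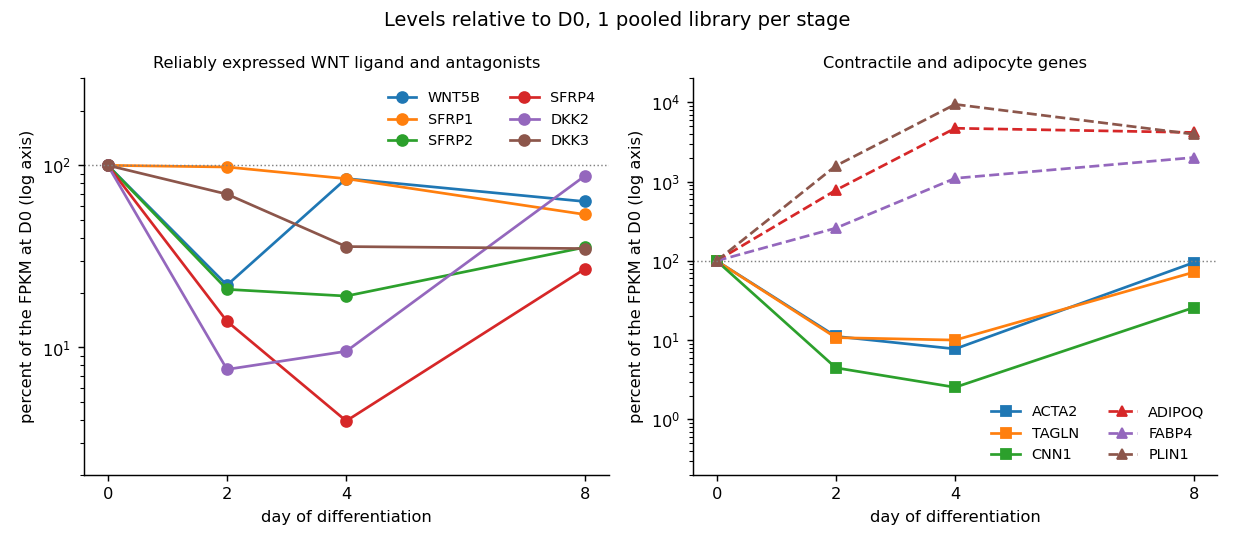
FPKM as percent of the D0 library (log axis) at D0, D2, D4 and D8, for the 6 reliably expressed genes of the set (left) and for contractile genes (squares) and adipocyte genes (triangles, right). DKK2 is at 7.58% at D2 and 87.4% at D8, DKK3 and SFRP2 end near 35%, and SFRP1 is at 97.9% at D2 and 53.7% at D8.

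Counted over the 5 comparisons, most 2-fold differences among the 6 reliably expressed genes were lower values than at D0. In D2 vs D0, 4 of the 6 were at least 2-fold lower (WNT5B, SFRP2, SFRP4 and DKK2), where 10.1% of the 9191 reliably expressed mRNAs were, and 0 were higher, where 6.67% were. In D4 vs D2, 1 was lower (SFRP4; 0.838% of all) and 1 higher (WNT5B; 4.24%). In D8 vs D4, 2 were higher (SFRP4 and DKK2; 4.43%) and 0 lower (10.1%). Median-ratio scaling, which sets the median ratio of all reliably expressed mRNAs to about 0, added DKK3 to the lower genes in D4 vs D2 and SFRP2 to the higher ones in D8 vs D4.

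The other 2 comparisons were those of the late stages with D0. In D4 vs D0, 4 were lower (SFRP2, SFRP4, DKK2 and DKK3; 8.81% of all) and 0 higher (10.4%). In D8 vs D0, 3 were lower (SFRP2, SFRP4 and DKK3; 3.68%) and 0 higher (3.60%). Without the reliability rule, 7 of all 10 genes were lower and 0 higher in D2 vs D0, where 17.0% and 12.6% of the 16192 mRNAs were. Counted so, 2 were lower and 2 higher in D4 vs D2 (6.26% and 12.4%), 1 lower and 3 higher in D8 vs D4 (16.7% and 11.0%), 5 lower and 0 higher in D4 vs D0 (14.7% and 17.6%), and 5 lower and 0 higher in D8 vs D0 (11.2% and 10.5%). The genes added in D2 vs D0 were WNT5A, WNT10B and WNT11, the last with 7 reads at D0 and 1 at D2. In the other comparisons the added genes were WNT10B and WNT11 alone, with 0 to 31 reads in a library. With so few genes, 1 gene more or less moves these shares widely, and comparisons that include D0 share that library.

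The median log2 ratio of the 6 genes was −2.21 in D2 vs D0, −0.17 in D4 vs D2, 0.43 in D8 vs D4, −1.93 in D4 vs D0 and −1.20 in D8 vs D0. The medians of all 9191 mRNAs were −0.03, 0.09, −0.21, 0.06 and −0.18. With median-ratio scaling, the SFRP2 ratio in D8 vs D4 was 1.10 in place of 0.89. The values nearest to the limit of 1 were 1.48 for DKK3 in D4 vs D0 and 1.50 for SFRP2 in D8 vs D0 on the inside, and 0.96 for DKK3 in D4 vs D2 and 0.90 for SFRP1 in D8 vs D0 on the outside, as sizes of the log2 ratio.

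**Figure D3:**
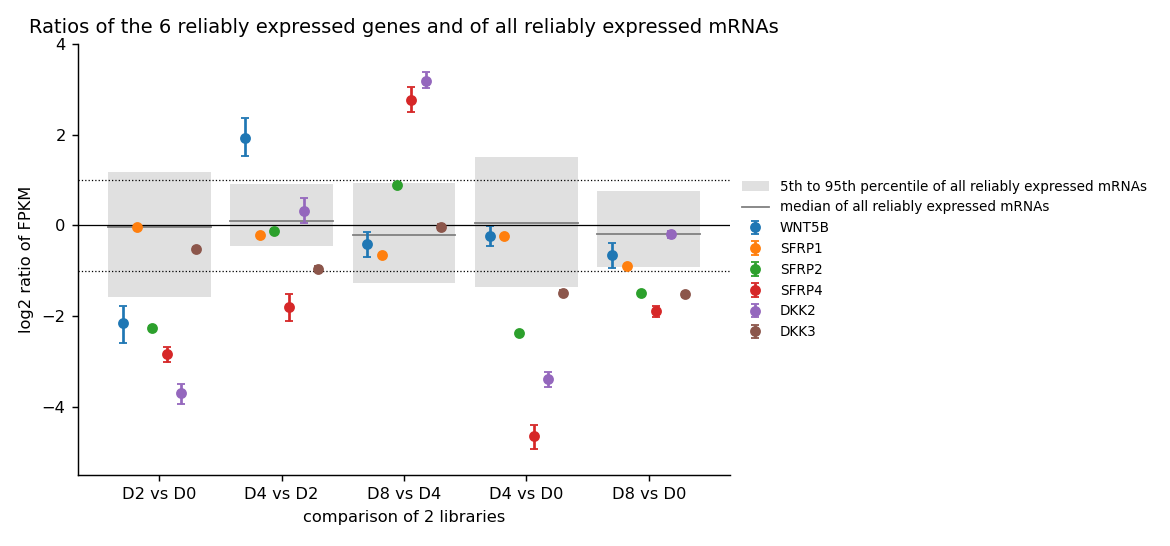
Log2 FPKM ratios of the 6 reliably expressed genes in the 5 comparisons, with 95% counting intervals as bars. The grey band is the 5th to 95th percentile of the 9191 reliably expressed mRNAs with their median as a line, and dotted lines mark 2-fold. In D2 vs D0, WNT5B, SFRP2, SFRP4 and DKK2 lie below the band, whose lower edge is −1.57, and SFRP1 lies at −0.03.

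The makeup of the antagonist pool differed between stages. Summed FPKM of SFRP1, SFRP2 and SFRP4 was 414, 173, 150.4 and 166 in stage order. SFRP2 made up 66.0% of it at D0 and 58.5% at D8, whereas SFRP1 made up 65.0% at D2 and 64.5% at D4. SFRP4 was a minor part throughout, between 0.69% at D4 and 6.31% at D0. DKK2 and DKK3 together had FPKM 76.7, 45.8, 24.3 and 33.2.

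The 5 ligands summed to FPKM 3.14, 0.799, 2.30 and 1.86, with 57.9% to 77.4% of this from WNT5B and 20.6% to 39.3% from WNT5A. The SFRP sum was therefore 132 times the ligand sum at D0 (95% counting interval 122 to 142), 216 times at D2 (184 to 255), 65.4 times at D4 (59.7 to 71.6) and 89.1 times at D8 (79.4 to 100.1). Over the 14 WNT and 5 SFRP family genes measured, the ratios were 67.0, 91.5, 30.7 and 36.0. Over either set of genes, the ratio was highest at D2, where both sums were below D0 and the ligands more so, and lowest at D4. These are ratios of RNA levels per length and say nothing of protein.

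**Figure D4:**
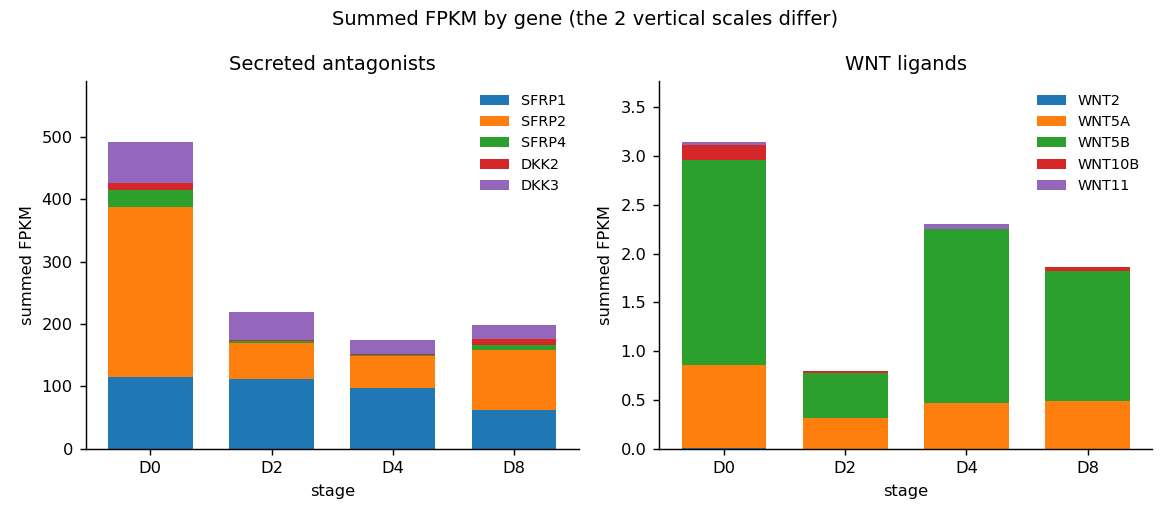
Summed FPKM in the D0, D2, D4 and D8 libraries, stacked by gene, for the antagonists and the ligands; the vertical scales of the panels differ. The D0 antagonist bar reaches 491, mostly SFRP2, and the D2 ligand bar is the lowest at 0.799.

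The mRNAs with patterns most like each gene were sought among the 9191 by the Euclidean distance of log2 FPKM centred over the 4 libraries. WNT5B lay nearest to KNTC1, a kinetochore protein (0.18), and RAD54B, a DNA repair factor (0.27). SFRP1 was nearest to R3HDM2 (0.10) and C3H16orf52 (0.12), and 1000 mRNAs lay within 0.5 of it, more than for any other reliably expressed gene of the set. SFRP2 was nearest to the metalloproteinase ADAMTS6 (0.15) and the LIM protein AJUBA (0.20), and DKK3 to the matrix genes SPON2 (0.17) and FMOD (0.24).

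SFRP4 and DKK2 had few such neighbours. DKK2 had 3 mRNAs within 0.5, with CCDC112 (0.47) and CAV1 (0.48), the coat protein of caveolae, the nearest. CAV1 had FPKM 294, 30.6, 31.4 and 221. Of the contractile genes, TAGLN lay 0.55, ACTA2 0.61 and CNN1 1.56 from DKK2, and CNN1 was nearer to SFRP4 (1.31), distances looked up after the values were seen. SFRP4 had 0 mRNAs within 0.5, and its nearest were the tight junction gene CLDN1 (0.91) and the collagen cross-linking enzyme LOXL4 (1.002). Within the set, SFRP1 and DKK3 were closest (0.88) and SFRP1 and DKK2 farthest apart (3.81), so that the 5 antagonists did not share a single pattern.

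Beside these 10 genes, 101 further genes of the pathway were listed by role, of which 88 were measured and 41 reliably expressed. Of the 41, 8 (19.5%) were at least 2-fold higher and 9 (22.0%) lower in D2 vs D0, where 6.67% and 10.1% of all reliably expressed mRNAs were. In D4 vs D2, 3 (7.32%) were higher and 0 lower (4.24% and 0.838% of all). In D8 vs D4, 2 (4.88%) were higher and 9 (22.0%) lower (4.43% and 10.1% of all). In D4 vs D0, 10 (24.4%) were higher and 5 (12.2%) lower (10.4% and 8.81% of all). In D8 vs D0, 5 (12.2%) were higher and 1 (2.44%) lower (3.60% and 3.68% of all). The split in D8 vs D4 depended on the scaling, with 4 higher and 6 lower under median-ratio scaling and 2 higher and 13 lower with equal protein-coding sums. These other genes differed in both directions. None of the 6 reliably expressed genes of the set described here was at least 2-fold higher than at D0. With 6.67%, 10.4% and 3.60% of all higher at D2, D4 and D8, 0 of 6 does not set these genes apart.

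Of the other ligands, 9 of 14 were measured and 1 was reliably expressed, WNT9A, which like WNT5B was low at D2. Its FPKM was 1.21, 0.41, 1.71 and 1.69. The D2 level was 2.98-fold below D0 (log2 ratio −1.55, −1.93 to −1.23) and the D4 level 4.19-fold above D2 (2.04, 1.74 to 2.41). WNT2B, at 436, 1, 2 and 48 reads, had most of its reads at D0, and WNT10A, at 1, 6, 48 and 7 reads, was highest at D4, both below FPKM 1. WLS, the cargo receptor that carries ligands to the cell surface, varied little, with FPKM 25.5, 17.4, 17.9 and 18.5.

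Among the other secreted antagonists, 7 of 10 were measured and 1 was reliably expressed. SFRP5, an SFRP known from adipocytes, went the other way from SFRP2 and SFRP4, with FPKM 0.31, 4.87, 10.3 and 4.37. It was 15.9-fold higher at D2 than at D0 (log2 ratio 3.95, 3.42 to 4.62) and 33.6-fold higher at D4 (5.03, 4.52 to 5.68), and 2.36-fold lower at D8 than at D4. Even at its highest, it gave 6.41% of the summed FPKM of SFRP1, SFRP2, SFRP4 and SFRP5. RSPO1, a secreted enhancer of WNT signalling, was not reliably expressed and had 916, 1, 24 and 129 reads, so it too was highest at D0 and partly back at D8. The D4 level was 37.6-fold below D0 (−5.14, −5.88 to −4.65).

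All 21 receptor and co-receptor genes listed were measured and 11 reliably expressed, of which 5 were at least 2-fold higher and 1 lower in D2 vs D0, where 6.67% and 10.1% of all reliably expressed mRNAs were, and 6 higher and 1 lower in D4 vs D0 (10.4% and 8.81%). FZD4, a Frizzled that also binds norrin, had FPKM 2.18, 33.5, 60.4 and 9.97, which was 15.4-fold higher at D2 than at D0 (log2 ratio 3.94, 3.83 to 4.05). ROR1, a receptor for WNT5A, had FPKM 0.45, 2.25, 2.16 and 1.12, and APCDD1, a membrane-bound inhibitor of the pathway, had 0.24, 1.19, 2.77 and 1.80. The pseudokinase PTK7 and the co-receptor LRP6 were the other 2 that were higher at D2, with log2 ratios of 1.33 and 1.14, and FZD2 was the one that was lower (−1.32). In D8 vs D4, FZD4, PTK7 and LRP6 were at least 2-fold lower, the last not under median-ratio scaling (−0.87).

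Inside the cell, 14 of 19 measured components were reliably expressed, and 5 of these passed 2-fold in at least 1 comparison. CTNNB1, which encodes β-catenin, had FPKM 181, 157, 165 and 150. In D2 vs D0, TCF7L2, the transcription factor partner of β-catenin, was the single component past the limit (log2 ratio 1.15), and in D8 vs D4 it was lower (−1.04) together with TLE3, PYGO1 and DVL2, 4 of the 14 where 10.1% of all reliably expressed mRNAs were lower. The calls of TCF7L2 and DVL2 in D8 vs D4 ended under median-ratio scaling (−0.83 and −0.89), which left 2 of the 14 lower. In D4 vs D0, TCF7L2 (1.43) and TLE3 (1.05) were higher and DVL1 (−1.13) lower, and the call of TLE3 ended under the same scaling (0.996). On the β-catenin-independent side, 8 of 12 measured genes were reliably expressed. Of these 8, 5 were at least 2-fold lower in D2 vs D0, where 10.1% of all reliably expressed mRNAs were. These were the calcium-dependent kinases CAMK2D (−1.63) and CAMK2G (−1.19), the formin-related DAAM2 (−1.61) and DAAM1 (−1.15), and the planar polarity gene PRICKLE1 (−1.43). At D8 the 8 genes were less than 2-fold from D0.

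Genes commonly used as β-catenin targets differed in both directions. All 11 were measured and 4 reliably expressed. MYC had FPKM 3.67, 10.3, 14.3 and 3.99, and CCND1, which encodes cyclin D1, had 14.4, 2.57, 2.79 and 7.27. NKD2, which binds dishevelled and limits WNT signalling, had 27.0, 11.99, 8.73 and 11.0, and WISP1, a matricellular protein gene now called CCN4, had 4.42, 5.53, 5.12 and 15.5. Below the reliability limit, LEF1 had 49, 259, 750 and 238 reads and AXIN2 had 72, 95, 330 and 58, both highest at D4, as were NKD1, SP5 and TNFRSF19 in FPKM. For TNFRSF19, D8 lay within counting error of D4 (log2 ratio −0.62, −1.75 to 0.21). WISP2, now called CCN5, had 213, 4, 1 and 11 reads and was highest at D0. TCF7 had 63, 7, 50 and 13 reads, and its D4 level lay within counting error of D0 (log2 ratio −0.29, −0.879 to 0.245).

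**Figure D5:**
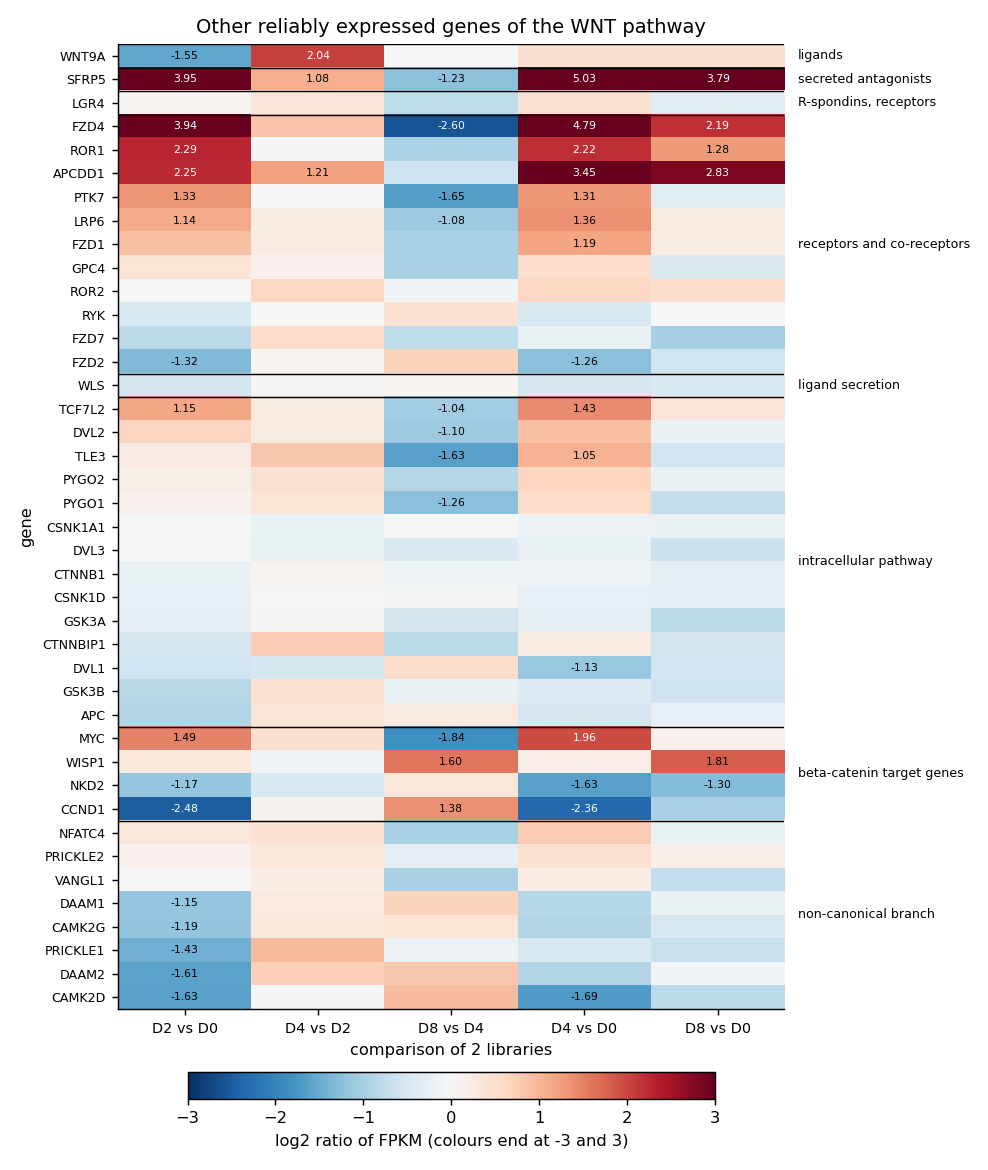
Log2 FPKM ratios of the 41 other reliably expressed pathway genes (rows, grouped by role) in the 5 comparisons (columns), with numbers printed where the ratio was at least 2-fold. SFRP5, FZD4, ROR1 and APCDD1 are higher in all 3 comparisons with D0. The β-catenin-independent genes hold 5 of the 9 lower values in D2 vs D0, where 10.1% of all reliably expressed mRNAs were lower.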

How the data were processed

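Ribosomal RNA-depleted total RNA was sequenced from 1 pooled library per stage (3 piglets each), prepared with a directional kit. The authors aligned reads with HISAT2 2.0.5 to Sscrofa11.1 and deposited FPKM values for genes. The same column of each file holds circRNA values scaled by mapped reads (BWA-MEM and CIRI, at least 2 junction reads). The counting tool and its strand setting are not given in the sources used here. The files hold no comparison columns.

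From the deposited FPKM, library totals were computed from tRNA and miRNA genes with 1 read, and the reads of each of 22944 genes from the shortest whole length that gave whole numbers in all 4 libraries (tolerance 0.001 reads). These reads made up 98.9% to 99.1% of the totals. For genes with few reads they may be a whole fraction of the true number. The method was run on simulated data that took their lengths from this same recovery and held counting noise only. Changes were simulated only in genes above FPKM 3, so calls of lower genes and differences between replicates were not tested. Ratios were taken on log2(FPKM + 0.01), a scale that understates changes of the lowest genes. A gene was called where FPKM was at least 1 in 3 or more libraries and the ratio was at least 2-fold. The 95% intervals are exact Poisson for levels and conditional binomial for ratios of reads. Those for the ratios of SFRP to WNT sums are normal approximations on the log scale, from the reads of each gene. PCR reads are not independent molecules, and a library with 0 reads was set to a floor of 3 reads for bounds.

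All 10 genes are given with values, other pathway genes by counts with examples of large ratios, and the 2 nearest mRNAs for each pattern. Genes and lists were chosen with earlier results of these data known, and 13 listed pathway genes were not analysed here. The alternatives were a pseudocount of 1, no filter, scaling by median ratios, scaling to an equal sum over protein-coding genes, and wider gene families in the sums. Applying both scalings to the other pathway genes was added after seeing the data. Python 3.11.15, numpy 2.4.6, pandas 2.3.3, scipy 1.17.1 and matplotlib 3.10.9 were used.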

Additional observations from a re-analysis of the deposited data

How the results depend on the processing

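The direction of the 15 member ratios past 2-fold could not turn under these alternatives, so this was not a check of them. A pseudocount or filter cannot change the sign of a ratio. Each scaling shifted the ratios of a comparison by about the same amount, which was below the 2-fold limit. Without the filter on low values, the count of the 10 genes at least 2-fold lower became 7 in D2 vs D0 (4 with the filter), 2 in D4 vs D2 (1), 1 in D8 vs D4 (0) and 5 in D8 vs D0 (3), and the count higher in D4 vs D2 became 2 (1). The genes added were WNT5A, WNT10B and WNT11, of which WNT10B and WNT11 had at most 31 reads in a library. With a pseudocount of 1, 0 genes were at least 2-fold higher in D4 vs D2, since WNT5B moved from 1.92 to 0.93. Under median-ratio scaling and under scaling to an equal protein-coding sum, 2 genes were lower in D4 vs D2, as DKK3 moved from −0.96 to −1.05 and −1.03, and under the former SFRP2 (0.89 to 1.10) made the count higher in D8 vs D4 3 in place of 2, while 4 other pathway genes were higher in that comparison in place of 2. The other pathway genes lower there were 6 and 13 under these scalings (9 as deposited). The ratio of SFRP to WNT sums became 67.0, 91.5, 30.7 and 36.0 at D0, D2, D4 and D8 when 14 WNT and 5 SFRP family genes were used. No paired analysis was possible because each stage has 1 library and the labels carry no replicate numbers, and for the same reason no library could be left out.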

Other observations

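At the loci of the 10 genes, 0 of the 8623 listed circRNAs overlapped a gene of the set, and 23 other features lay within 50 kb. Besides FBXL14, the overlapping features were LOC102162847 at WNT5A, with 2, 0, 3 and 5 reads, and LOC110262177 at DKK2, with 0, 0, 0 and 1 reads, both on the opposite strand. EPDR1, which encodes an ependymin-related protein, lies 3662 bases from SFRP4 on the opposite strand and had the same order of libraries, with FPKM 77.1, 33.4, 17.6 and 39.5. Its log2 ratios were −1.21 in D2 vs D0, −2.13 in D4 vs D0 and 1.16 in D8 vs D4, where those of SFRP4 were −2.84, −4.65 and 2.76. The lncRNA LOC102160616 lies 48547 bases from DKK3 on the same strand and had 81, 0, 4 and 8 reads, so it too was highest at D0.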
